A study of Xenopus tropicalis x Xenopus laevis and Xenopus laevis and Xenopus tropicalis with 8 samples.

Results

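Most of the genes described here encode parts of the spliceosome or SR proteins. The set was chosen by name, with earlier results of these data known. It holds the symbols that begin with *snrp*, *sf3a*, *sf3b* or *prpf*, or that are *srsf* or *lsm* followed by a digit. Of the 34647 transcripts listed, 168 carry such a symbol, 107 from *X. laevis* and 61 from *X. tropicalis*. Summed by symbol within each species they give 54 *X. laevis* genes out of 11785 named symbols and 56 *X. tropicalis* genes out of 11679, and 53 symbols are listed in both species. The symbols *lsm10*, *lsm11* and *snrpg* are listed for *X. tropicalis* only, and *lsm7* for *X. laevis* only.

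Polyadenylated RNA was sequenced from whole embryos at 9 h post-fertilization (stage 9), when transcription from the embryo's own genome is beginning. The groups were le × ts hybrids (*X. laevis* eggs fertilized with *X. tropicalis* sperm) with *X. laevis* embryos for comparison, and te × ls hybrids (*X. tropicalis* eggs fertilized with *X. laevis* sperm) with *X. tropicalis* embryos for comparison. Each group has 2 libraries, numbered 1 and 3. The le × ts cross gives viable animals, whereas te × ls embryos are known to die at about the time of genome activation. The number of embryos per library and their parents are not given in the sources used here, so p-values measure the spread between these libraries only. In whole embryos fewer cells of a kind and less RNA per cell cannot be told apart.

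The spliceosome removes introns from pre-mRNA. Its U1, U2, U4, U5 and U6 particles each carry a small nuclear RNA, a protein ring and particle-specific proteins. The ring is of Sm proteins (some of the *snrp* genes) or, on U6, of LSm proteins (some of the *lsm* genes). The other *snrp* and *lsm* genes do not encode proteins of these rings. The *sf3a* and *sf3b* genes encode the U2 subcomplexes that bind at the branch point, and the *prpf* genes encode pre-mRNA processing factors such as the U5 scaffold *prpf8*. SR proteins (the *srsf* genes) bind exonic RNA through RNA recognition motifs and recruit these particles through a domain rich in arginine and serine, and many of them regulate alternative splicing. A *Xenopus* egg stores the RNAs of the general splicing machinery. Transcripts of the egg's species can thus be abundant in a hybrid whatever its genome does, though no egg was sequenced here. Transcripts of the sperm's species can come from the sperm or be made from its genome. They are read against the level assigned to the sperm's species in embryos of the egg's species.

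The values are TPM, the share of a transcript among all transcripts after correction for length, from reads that matched only 1 transcript of a combined *X. laevis* and *X. tropicalis* database without mismatch. From the TPM steps of very low transcripts, the *X. laevis* and le × ts libraries held between 0.439 (le × ts replicate 3) and 1.13 times the reads of *X. laevis* replicate 1, and the te × ls and *X. tropicalis* libraries between 0.323 (*X. tropicalis* replicate 3) and 1.52 times those of *X. tropicalis* replicate 1. Absolute depth is unknown. Sperm-species transcripts held 0.678% and 1.02% of TPM in le × ts, against 0.293% and 0.332% of *X. tropicalis* assignment in *X. laevis*, and 0.355% and 0.429% in te × ls, against 0.124% and 0.230% of *X. laevis* assignment in *X. tropicalis*. Among 8 genes first transcribed at this stage, all 8 *X. tropicalis* symbols were at 1 TPM or more in le × ts replicate 1 and 7 in replicate 3, while none reached 1 TPM in *X. laevis*. Of them 6 are listed for *X. laevis*, and 4 reached 1 TPM in each te × ls library, with *nodal3* at 0. Egg-species transcripts of these genes summed to 278.8 and 194.2 TPM in le × ts, against 544.2 and 370.4 TPM in *X. laevis*. In te × ls they summed to 137.6 and 363.0 TPM, against 413.8 and 872.0 TPM in *X. tropicalis*. Of 9 markers of differentiated muscle, blood and nerve, 2 *X. laevis* and 3 *X. tropicalis* symbols are listed, and their sum stayed at or under 0.794 TPM in every library. Tests were made with limma on log2(TPM + 1), over all genes that reached 1 TPM in 2 or more of the 4 libraries compared, and a gene was called at a Benjamini-Hochberg adjusted p under 0.05 with a log2 difference above 1 in size. On this scale the change of a gene near or under 1 TPM appears smaller than its fold.

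In embryos of their own species the genes were abundant. The median was 251 TPM over the 54 *X. laevis* genes in *X. laevis* embryos, against 26.8 TPM over all *X. laevis* genes listed above 0 there, and 261 TPM over the 56 *X. tropicalis* genes in *X. tropicalis* embryos, against 29.0 TPM. Family medians in *X. laevis* and *X. tropicalis* embryos were 473 and 431 TPM for *snrp*, 483 and 324 TPM for *sf3a*, 96.5 and 157 TPM for *sf3b*, 175 and 214 TPM for *prpf*, 301 and 331 TPM for *srsf* and 239 and 203 TPM for *lsm*. The SF3b genes were thus the least abundant family by median in both species. The most abundant *X. laevis* member was *srsf5*, an SR protein gene, at 1794 and 1917 TPM in replicates 1 and 3 of *X. laevis*. The most abundant *X. tropicalis* member was *srsf2*, which encodes the SR protein also known as SC35, at 1739 and 1892 TPM in *X. tropicalis*. In the *snrp* family the Sm gene *snrpb* led in both species, at 1545 ± 79.1 TPM in *X. laevis* and 995 ± 222 TPM in *X. tropicalis* (SD, n = 2 each). The other leading genes of *X. laevis* were *sf3a3* (588 ± 39.5 TPM), *sf3b1*, the large branch-point subunit (205 ± 15.6 TPM), *prpf38a* (569 ± 84.0 TPM) and *lsm8*, which marks the nuclear LSm ring (875 ± 251 TPM). In *X. tropicalis* they were *sf3a2* (370 ± 17.5 TPM), *sf3b4* (401 ± 65.0 TPM), *prpf31*, a U4/U6-U5 particle protein (463 ± 37.8 TPM), and *lsm12* (563 ± 128 TPM). The lowest *X. laevis* member was *sf3b4*, at 22.8 TPM.

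Transcripts from the sperm's genome were looked for first in le × ts. A gene was counted as detected only in the hybrid when it was at 1 TPM or more in both le × ts libraries and under that level in both *X. laevis* libraries. Of the 56 *X. tropicalis* members 1 met this count, the SR protein gene *srsf7*, against 1.27% of all *X. tropicalis* genes listed. With the groups exchanged 1 member met it too, *prpf38a*, at 0.314 and 0.70 TPM in le × ts and 1.22 and 1.17 TPM in *X. laevis*. At this level of 1 TPM, leaving out le × ts replicate 1 gave 3 members, leaving out le × ts replicate 3 gave 5 and leaving out *X. laevis* replicate 3 gave 2. The count moved with the level. At 0.5 TPM 2 members met it, *lsm14a* and *srsf6*, against 1.99% of all listed, and at 5 TPM 4 did, the SR protein genes *srsf1*, *srsf2*, *srsf5* and *srsf7*, against 0.405%, with 0 members in the exchanged direction at either level. Of these, *srsf1*, *srsf2* and *srsf5* each reached 1 TPM in an *X. laevis* library. Of these genes *srsf1* and *srsf2* were chosen after their values were seen. The rule for naming genes lists *srsf5* and *srsf7*, and the members and lists were chosen with earlier results of these data known.

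The gene *srsf7*, whose SR protein also carries a zinc knuckle, stood at 26.5 and 10.03 TPM in le × ts replicates 1 and 3, against 0.613 and 0.649 TPM in *X. laevis*. Both hybrid libraries were far above both *X. laevis* libraries, and the log2 difference was 3.42 (SE 0.554, adjusted p = 0.630 from limma). For *srsf5* the sum of 2 transcripts was 38.0 and 17.7 TPM in le × ts and 2.75 and 4.04 TPM in *X. laevis* (log2 difference 2.63, SE 0.487, adjusted p = 0.795 from limma). Its transcript Tan201204_XENTRc2st10_000021734 stood at 24.3 and 8.85 TPM in le × ts and 0.715 and 1.70 TPM in *X. laevis*. Most of the *X. laevis* background lay in the other transcript, BarbosaMorais2012_XENTRheart_n000053552, at 13.7 and 8.80 TPM in le × ts and 2.03 and 2.35 TPM in *X. laevis*. This second transcript was a minor one in *X. tropicalis* embryos, at 29.3 and 68.1 TPM, where the first stood at 751 and 933 TPM. The gene *srsf1*, known as SF2 or ASF, stood at 24.4 and 5.27 TPM in le × ts and 0.832 and 1.34 TPM in *X. laevis* (log2 difference 2.61, SE 0.742, adjusted p = 1 from limma). For *srsf2* the values were 19.1 and 5.68 TPM in le × ts and 1.55 and 2.63 TPM in *X. laevis* (log2 difference 1.93, SE 0.637, adjusted p = 1 from limma). In each of these genes the groups did not overlap, but the le × ts libraries were far apart, with replicate 1 the higher in all 4.

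With limma, 0 *X. tropicalis* members were called in le × ts, as for all *X. tropicalis* genes tested (0%). With adjustment within each species 2 were called by limma, *srsf5* (adjusted p = 0.0321) and *srsf7* (adjusted p = 0.0254). The share of all *X. tropicalis* genes called in that setting was not counted, so these 2 cannot be taken as particular to the members. Of these, *srsf7* passed the filter on low values through le × ts alone, being under 1 TPM in *X. laevis*. The tested genes were thus chosen in part by the group in which they are high, and this count is a description. The gene *srsf5* was above 1 TPM in both *X. laevis* libraries. For the same groups, the paper reports *X. tropicalis* genes significantly more abundant in le × ts by edgeR. The lack of calls here therefore does not mean that sperm-species transcripts were absent. Of the 56 members, 13 passed the filter on low values. The 4 SR genes above had an unadjusted p under 0.05, as did 145 of all 465 *X. tropicalis* genes tested. The same 4 SR genes were higher by over 2-fold on the log2 scale with groups that did not overlap, and this share was 1.28% over all *X. tropicalis* genes listed and 35.5% over those tested.

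In the other cross, *X. laevis* transcripts of SR protein genes also stood above the *X. tropicalis* background. With limma, 4 of the 54 *X. laevis* members were called higher in te × ls, *srsf2*, *srsf5*, *srsf7* and *srsf9*, against 0.492% of all *X. laevis* genes listed (13.3% of those tested). All 4 passed the filter on low values through te × ls alone, being under 1 TPM in *X. tropicalis*, so the tested genes were chosen in part by the group in which they are high and the count is a description. The gene *srsf5* stood at 22.8 and 48.6 TPM in te × ls replicates 1 and 3, against 0.626 and 0.590 TPM in *X. tropicalis* (log2 difference 4.42, SE 0.412, adjusted p = 0.0499 from limma). Both of its transcripts contributed, TeperekTkacz201205_000149026 at 16.8 and 41.6 TPM and Ueno2012104cells_000143113 at 6.04 and 7.06 TPM in te × ls. For *srsf7* the values were 12.4 and 17.3 TPM in te × ls, and in *X. tropicalis* it is listed at 0 in replicate 1 and stood at 0.204 TPM in replicate 3 (log2 difference 3.83, SE 0.278, adjusted p = 0.0443 from limma). All 3 *X. laevis* transcripts of *srsf7* were at 3.19 TPM or more in both te × ls libraries. The gene *srsf2* stood at 6.11 and 8.29 TPM in te × ls, and in *X. tropicalis* at 0.189 TPM in replicate 1 and 0 in replicate 3 (log2 difference 2.90, SE 0.268, adjusted p = 0.0499 from limma). The gene *srsf9* stood at 5.58 and 5.21 TPM in te × ls, while both *X. tropicalis* libraries list it at 0, so that no fold is given (adjusted p = 0.0472 from limma). In all 4 genes both te × ls libraries lay well above both *X. tropicalis* libraries.

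These calls lay close to the threshold. The share of all *X. laevis* genes called was not counted in the settings that follow. The count fell to 0 without the filter, with a filter at 5 TPM, with quantile normalization, with transcripts not summed by symbol, and without either te × ls library, where the genes no longer passed the filter. It was 6 with adjustment within each species, 5 with all 4 groups fitted together and 5 without either *X. tropicalis* library.

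A core spliceosome gene also stood out in te × ls. The *X. laevis* transcript of *sf3b5*, a small subunit of the SF3b subcomplex, stood at 6.29 and 13.1 TPM in te × ls, with 0 listed for both *X. tropicalis* libraries (adjusted p = 0.0729 from limma). It was not called. In le × ts, the *X. tropicalis* transcript of *sf3b5* is listed at 0 in both hybrid libraries, and stood at 0.306 and 0 TPM in *X. laevis*. The Sm gene *snrpb* was at 1.70 and 1.94 TPM in te × ls and 0.192 and 0.592 TPM in *X. tropicalis* (log2 difference 1.03, SE 0.267, adjusted p = 0.462 from limma). Both *sf3b5* and *snrpb* passed the filter on low values through te × ls alone, being under 1 TPM in *X. tropicalis*. Their p-values and the counts of tested genes below are thus descriptions. At 1 TPM, 6 *X. laevis* members were detected in both te × ls libraries and neither *X. tropicalis* library, the 4 called genes with *sf3b5* and *snrpb*, against 2.74% of all *X. laevis* genes listed. At 5 TPM 5 members were, without *snrpb*, against 0.592%, and at 0.5 TPM 8 members were, against 4.37%. With the groups exchanged 0 members met any of these counts. Of the 54 *X. laevis* members, 9 passed the filter of the test, 7 had an unadjusted p under 0.05 (as did 360 of all 482 *X. laevis* genes tested), and 6 were higher by over 2-fold on the log2 scale with groups that did not overlap (2.65% of all *X. laevis* genes listed and 71.6% of those tested).

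**Figure D1:**
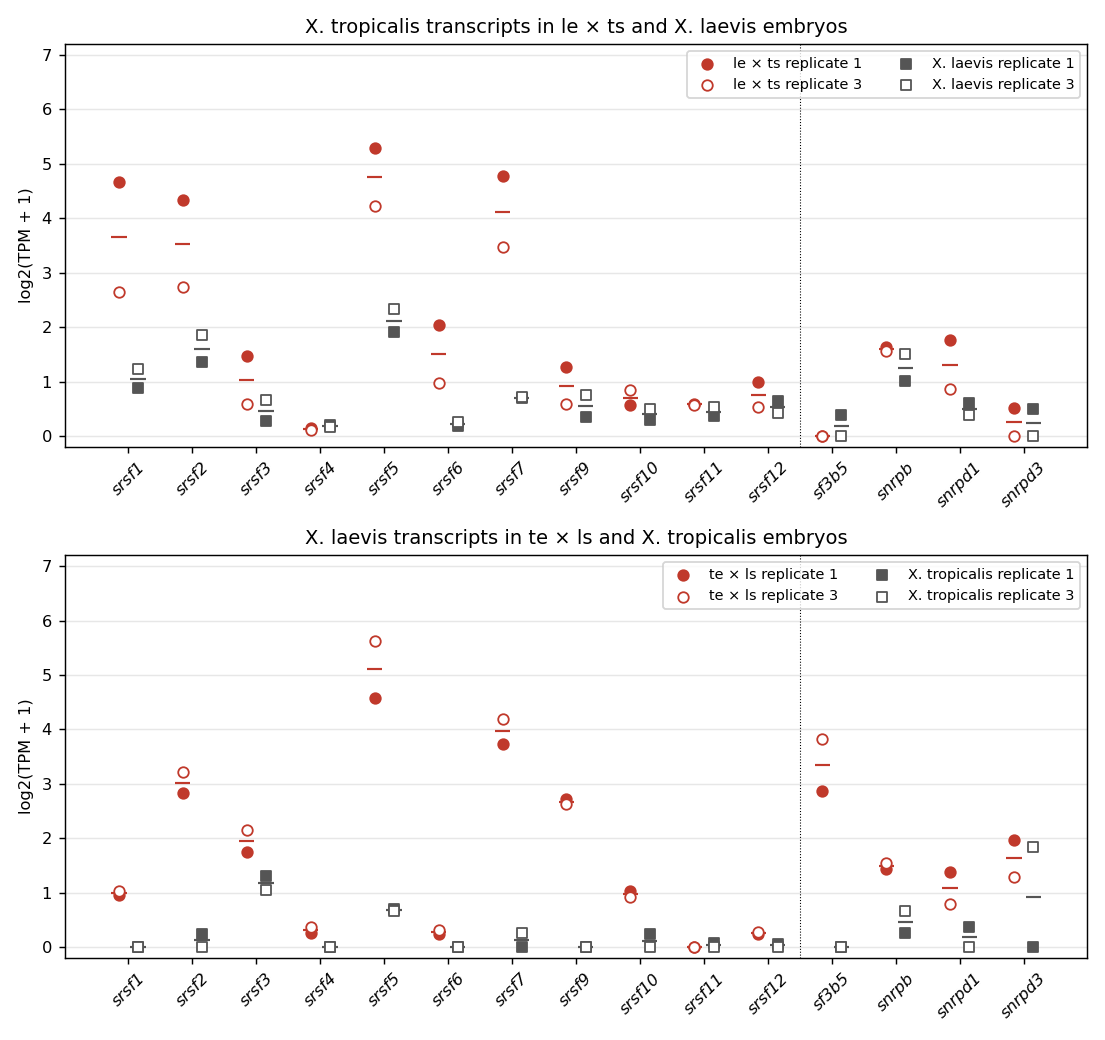
Level of sperm-species transcripts, as log2(TPM + 1), of the 11 SR protein genes (left of the dotted line) and 4 other members in hybrids (red circles) and embryos of the egg's species (grey squares), with filled points for replicate 1, open points for replicate 3 and a bar for the mean of 2 libraries. In le × ts (top) *srsf1*, *srsf2*, *srsf5* and *srsf7* stand above both *X. laevis* libraries at 5.27 TPM or more, and in te × ls (bottom) *srsf2*, *srsf5*, *srsf7*, *srsf9* and *sf3b5* stand at 5.21 TPM or more.

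The remaining SR genes were low in both crosses, and those named next, as well as *snrpd3*, were chosen after their values were seen. In le × ts the *X. tropicalis* transcript of *srsf6* stood at 3.12 and 0.974 TPM, against 0.130 and 0.191 TPM in *X. laevis*, and *srsf3*, the smallest SR protein, stood at 1.76 and 0.494 TPM, against 0.214 and 0.574 TPM. In te × ls the *X. laevis* transcript of *srsf1* stood at 0.955 and 1.06 TPM, with 0 listed for both *X. tropicalis* libraries. The *X. laevis* transcripts of *srsf3* stood at 2.38 and 3.46 TPM in te × ls, against a background of 1.47 and 1.06 TPM in *X. tropicalis* (adjusted p = 0.977 from limma). The *X. laevis* transcripts of *srsf11* are listed at 0 in both te × ls libraries. For the Sm gene *snrpd3* the groups overlapped, at 2.94 and 1.45 TPM in te × ls and at 0 and 2.57 TPM in *X. tropicalis*.

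Summed over the family, the 11 *X. tropicalis* *srsf* genes reached 116 and 42.4 TPM in le × ts replicates 1 and 3, against 7.60 and 11.4 TPM in *X. laevis*. The other 45 *X. tropicalis* members together reached 22.0 and 23.1 TPM in le × ts and 15.7 and 22.0 TPM in *X. laevis*. The 11 *X. laevis* *srsf* genes reached 51.8 and 85.6 TPM in te × ls, against 2.57 and 1.86 TPM in *X. tropicalis*, and the other 43 *X. laevis* members 20.6 and 28.2 TPM in te × ls, against 4.36 and 12.6 TPM. Hybrid and egg-species libraries did not overlap in any of these 4 sums. For the other 45 *X. tropicalis* members they all but met, at 22.02 TPM in le × ts replicate 1 and 21.97 TPM in *X. laevis* replicate 3. In te × ls *sf3b5* alone supplied 6.29 and 13.1 TPM of the sum of the other members. With 2 libraries against 2, a two-sided exact permutation test cannot go below p = 0.33, so no test of these sums is given.

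To set genes of unequal abundance side by side, the mean level in the hybrid, less the mean in the egg's species, was expressed as a percentage of the mean in embryos of the sperm's species, for genes at 10 TPM or more there. This is a description and not a rate of transcription, since embryos of the sperm's species also hold RNA stored in the egg. For *X. tropicalis* transcripts in le × ts, *srsf7* stood at 2.92%, *srsf5* at 2.75%, *srsf6* at 1.39%, *srsf1* at 1.38% and *srsf2* at 0.567%. For *X. laevis* transcripts in te × ls, *srsf7* stood at 2.36%, *srsf5* at 1.89%, *srsf2* at 1.61%, *srsf1* at 1.23% and *srsf9* at 1.03%. By these means of 2 libraries, *srsf7* and *srsf5* were the SR genes with the highest share in both crosses. In te × ls the rank of *srsf5* rests on replicate 3, at 48.6 TPM against 22.8 TPM in replicate 1. The mean share of *srsf1* was alike in both crosses, but its le × ts libraries were far apart, at 24.4 and 5.27 TPM. Its te × ls values were low, at 0.955 and 1.06 TPM, so the likeness is of means only. The 44 other members at 10 TPM or more lay between -0.594% and 0.274% in le × ts, with a median of 0.00992%. The median of the *srsf* family was 0.277%. That of all 8389 *X. tropicalis* genes was 0.00398%, with a range from -4.885% to 246.2%, so some genes had far higher shares than the SR genes. In te × ls the 43 other members lay between -0.209% and 15.3%, the highest being *sf3b5*, with a median of 0.0300%. The median of the *srsf* family was 0.659%. That of all 8384 *X. laevis* genes was 0.0226%, with a range from -21.46% to 171.2%. Genes of like abundance in the sperm's species could differ in this share. The *X. tropicalis* transcript of *snrpb*, at 995 TPM in *X. tropicalis*, stood at a share of 0.0606% in le × ts, and that of *srsf1*, at 994 TPM, at 1.38%. Both hybrid libraries lay above both libraries of the egg's species for 7 of 11 *srsf* genes and 6 of 44 others in le × ts (16.9% of all such *X. tropicalis* genes), and for 10 of 11 *srsf* genes and 15 of 43 others in te × ls (28.8% of all such *X. laevis* genes).

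**Figure D2:**
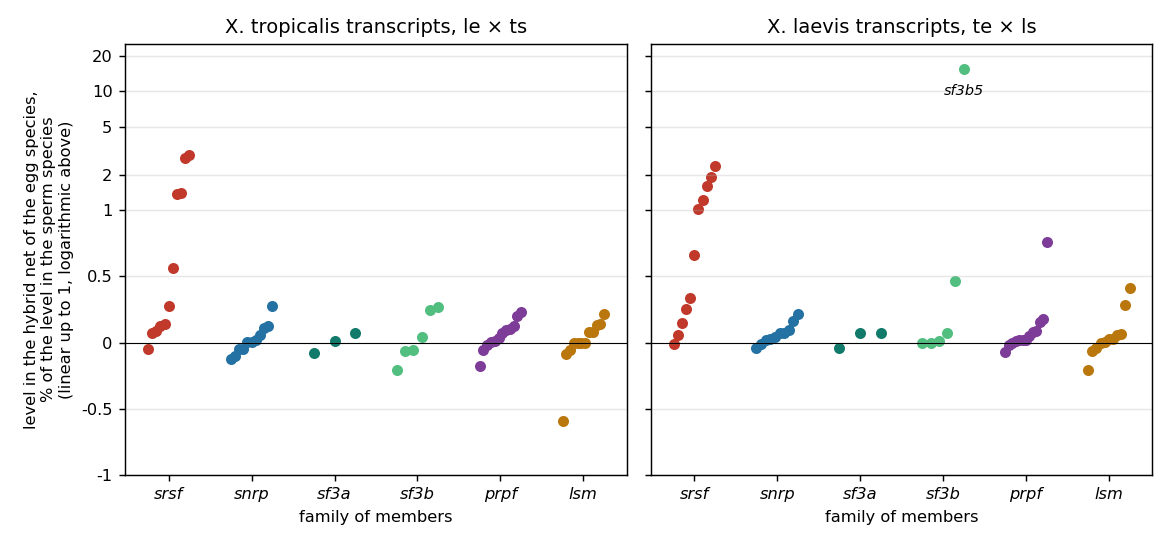
Mean level of each sperm-species member in the hybrid, less its mean in the egg's species, as a percentage of its mean in embryos of the sperm's species, by family, for le × ts (left) and te × ls (right). Each point is a gene at 10 TPM or more in the sperm's species, the axis is linear up to 1% and logarithmic above, and the points above 1% are *srsf* genes with the exception of *sf3b5* in te × ls (15.3%).

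Other splicing genes were followed through a list of 73 symbols of further snRNP proteins, helicases, splicing kinases, hnRNP proteins and others, chosen by function. In le × ts 67 of them are listed for *X. tropicalis* and 16 were tested, of which 0 were called and 6 were higher by over 2-fold with groups apart, beside the 35.5% of all *X. tropicalis* genes tested given above. These were *hnrnpa1*, *hnrnpa2b1*, *hnrnpdl*, *hnrnpk* and *hnrnpu*, which encode hnRNP proteins that bind nascent transcripts, and *tra2a*, which encodes a splicing activator related to SR proteins. In te × ls 68 are listed for *X. laevis* and 9 were tested, of which 1 was called and 7 were higher in that way, the same 5 hnRNP genes with *snrnp70* and *u2af2*, beside 13.3% called and 71.6% higher in that way among all *X. laevis* genes tested. In both crosses these counts are near those of all genes tested. Over genes listed, 6 of 67 were higher in that way in le × ts, beside 1.28% of all *X. tropicalis* genes listed. In te × ls 7 of 68 were, beside 2.65% of all *X. laevis* genes listed. The same holds for the members, of which 4 of 13 and 6 of 9 tested were higher in that way. The reading thus depends on the base, and the list was not tested as a set. The called gene was *hnrnpa1*, at 7.02 and 7.54 TPM in te × ls and 0.144 and 0.301 TPM in *X. tropicalis* (log2 difference 2.76, SE 0.228, adjusted p = 0.0472 from limma). It passed the filter on low values through te × ls alone, so this call is a description, as for the members called in te × ls. The other genes higher in that way in te × ls passed it likewise, with the exception of *hnrnpdl*. Of those higher in that way in le × ts, *hnrnpa1*, *hnrnpa2b1*, *hnrnpu* and *tra2a* were under 1 TPM in *X. laevis*. They passed the filter through le × ts alone, so that count is a description too. In le × ts the *X. tropicalis* transcripts of *hnrnpdl* stood at 16.6 and 4.72 TPM, against 1.01 and 1.59 TPM in *X. laevis*. In te × ls the *X. laevis* transcripts of *hnrnpdl* stood at 6.91 and 7.74 TPM, against 1.64 and 1.19 TPM in *X. tropicalis* (adjusted p = 0.0977 from limma).

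Transcripts of the egg's species were compared next. In le × ts, 0 of the 54 *X. laevis* members were called in either direction (0% of all *X. laevis* genes tested), and 0 had an unadjusted p under 0.05. The log2 differences lay between -0.83 and 0.56 (*lsm14b*), within 0.5 for 48 of 54, with a median of -0.14 against 0.01 over all *X. laevis* genes. Summed over the members, *X. laevis* transcripts reached 18206 and 19899 TPM in le × ts replicates 1 and 3, and 19442 and 20543 TPM in *X. laevis*, a difference of -4.70% that is smaller than the spread between replicates. The groups did not overlap for 12 members lower in le × ts, against 7.95% of all *X. laevis* genes, and for 1 higher, against 10.5%. Of the 12, 5 were *srsf* genes (*srsf1*, *srsf4*, *srsf5*, *srsf7* and *srsf10*). *X. laevis* transcripts of *srsf5* stood at 1617 and 1418 TPM in le × ts and 1794 and 1917 TPM in *X. laevis* (log2 difference -0.29, SE 0.193, adjusted p = 1 from limma), and those of *srsf7* at 544 and 463 TPM in le × ts and 592 and 658 TPM in *X. laevis* (log2 difference -0.31, SE 0.203, adjusted p = 1 from limma).

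The non-overlapping genes with the lowest log2 differences were *sf3b2*, *srsf1* and *prpf38b*. The *X. laevis* transcripts of *sf3b2*, an SF3b subunit, stood at 138 and 56.2 TPM in le × ts and 140 and 148 TPM in *X. laevis* (log2 difference -0.70, SE 0.452, adjusted p = 1 from limma). Those of *srsf1* stood at 72.3 and 45.4 TPM in le × ts and 77.4 and 86.6 TPM in *X. laevis*, and those of *prpf38b* at 77.1 and 46.0 TPM in le × ts and 77.2 and 83.9 TPM in *X. laevis*. In all 3 the difference lay mostly in le × ts replicate 3. The gene higher in both le × ts libraries was *prpf19*, which encodes a ubiquitin ligase of the spliceosome, at 447 and 452 TPM in le × ts and 418 and 376 TPM in *X. laevis*. Replicate 3 of le × ts, which held the fewest reads of these 4 libraries, was the lowest of the 4 for 29 of the 54 members (40.4% of all *X. laevis* genes) and the highest for 14 (28.6%). Between libraries numbered 1 the member differences ran from -0.45 to 0.30, with a median of -0.07, and between those numbered 3 from -1.64 to 1.03, with a median of -0.25. The part of read number in this was not tested.

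In te × ls the *X. tropicalis* members lay still closer to *X. tropicalis* embryos. With limma, 0 of 56 were called (0% of all *X. tropicalis* genes tested) and 0 had an unadjusted p under 0.05. All 56 log2 differences were within 0.5, between -0.18 and 0.29, with a median of 0.00 against -0.01 over all *X. tropicalis* genes. The summed level was 18582 and 20086 TPM in te × ls and 18387 and 19526 TPM in *X. tropicalis*, a difference of 1.99%. The groups did not overlap for 5 members higher (6.96% of all *X. tropicalis* genes) and 2 lower (10.2%). The higher ones were led by *snrpd3*, an Sm protein gene, at 363 and 328 TPM in te × ls and 323 and 245 TPM in *X. tropicalis*, by *lsm1*, of the cytoplasmic ring that acts in mRNA decay, at 197 and 197 TPM in te × ls and 175 and 160 TPM in *X. tropicalis*, and by *sf3a2*, at 389 and 409 TPM in te × ls and 383 and 358 TPM in *X. tropicalis*. Their log2 differences were 0.29, 0.24 and 0.11. Among the lower ones was the Sm gene *snrpd1*, at a log2 difference of -0.05. Replicate 3 of te × ls was the highest of the 4 libraries for 17 members and the lowest for 17 (22.2% and 31.6% of all *X. tropicalis* genes). *X. tropicalis* transcripts of *srsf5* and *srsf7* differed more between replicate numbers than between groups. Those of *srsf7* stood at 396 and 742 TPM in te × ls replicates 1 and 3 and at 416 and 792 TPM in *X. tropicalis* (log2 difference -0.08, SE 0.447), and those of *srsf5* at 760 and 944 TPM in te × ls and at 780 and 1001 TPM in *X. tropicalis*.

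**Figure D3:**
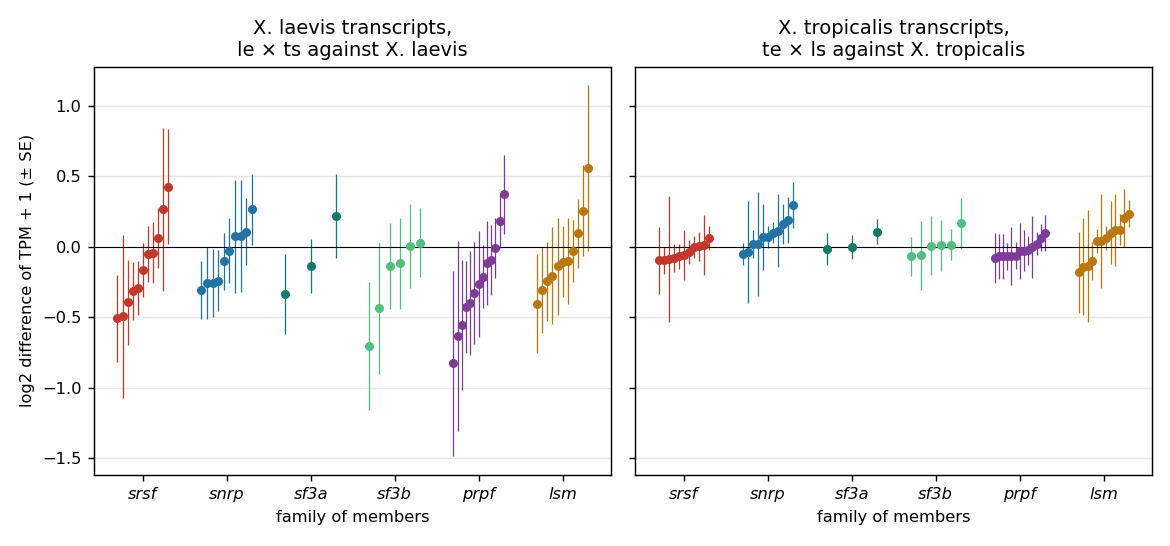
Log2 differences of TPM + 1 with standard errors (limma, 2 libraries against 2) for egg-species members by family, for *X. laevis* transcripts in le × ts against *X. laevis* (left, 54 genes) and *X. tropicalis* transcripts in te × ls against *X. tropicalis* (right, 56 genes). The left points span -0.83 to 0.56 with wide errors, the right points -0.18 to 0.29, and 0 are called in either.

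The parent species were compared through the 53 symbols listed in both, with *X. laevis* transcripts in *X. laevis* embryos and *X. tropicalis* transcripts in *X. tropicalis* embryos. Here 7 members were called higher in *X. laevis* and 10 lower, against 21.9% and 21.2% of 9476 shared symbols. For neither direction is the members' share above that of all shared symbols. The genes higher in *X. laevis* included *lsm5* (138 TPM in *X. laevis* and 25.9 TPM in *X. tropicalis*, log2 difference 2.39), *snrpd3* (1308 TPM in *X. laevis* and 284 TPM in *X. tropicalis*, 2.21) and *lsm3* (491 TPM in *X. laevis* and 169 TPM in *X. tropicalis*, 1.56). They also included *sf3a3*, *prpf8* and *srsf5*, at log2 differences of 1.21, 1.11 and 1.07, of which *srsf5* was not called without *X. tropicalis* replicate 1 (log2 difference 0.89).

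The genes lower in *X. laevis* were led by *sf3b4*, an SF3b subunit, at 22.8 ± 1.13 TPM in *X. laevis* and 401 ± 65.0 TPM in *X. tropicalis*, a log2 difference of -4.07 (SE 0.188, adjusted p = 6.37e-05 from limma). Among SR genes *srsf1* stood at 82.0 ± 6.46 TPM in *X. laevis* and 994 ± 27.9 TPM in *X. tropicalis* (log2 difference -3.58, SE 0.137, adjusted p = 4.74e-05 from limma), and *srsf2* at 443 ± 22.0 TPM in *X. laevis* and 1815 ± 108 TPM in *X. tropicalis* (log2 difference -2.03, SE 0.124, adjusted p = 9.20e-05 from limma). The Sm gene *snrpd2* stood at 154 ± 2.85 TPM in *X. laevis* and 754 ± 1.40 TPM in *X. tropicalis* (log2 difference -2.28). The remaining ones, *sf3b14*, *lsm1*, *prpf38b*, *prpf3*, *prpf40b* and *srsf6*, had log2 differences between -1.48 and -1.11. Over the 53 members the median difference was 0.16, against 0.02 over all shared symbols. *X. laevis* is allotetraploid and *X. tropicalis* diploid, and each sum holds only the transcripts listed. For *X. laevis* these are 1 for *srsf1* and *snrpd2*, 2 for *sf3b4* and 3 for *srsf2*, with 1 for each in *X. tropicalis*. Transcript models and the share of reads that match only 1 target can also differ between species for a symbol. The part of all these in the differences was not tested. Summed over all 54 *X. laevis* and 56 *X. tropicalis* members, the libraries overlapped, at 19442 and 20543 TPM in *X. laevis* and 18387 and 19526 TPM in *X. tropicalis*. These sums are of unlike gene sets. That of *X. tropicalis* alone holds *snrpg*, *lsm10* and *lsm11*, at means of 550, 304 and 34.2 TPM. That of *X. laevis* alone holds *lsm7*, at a mean of 86.5 TPM. The overlap therefore does not describe the 53 shared symbols.

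**Figure D4:**
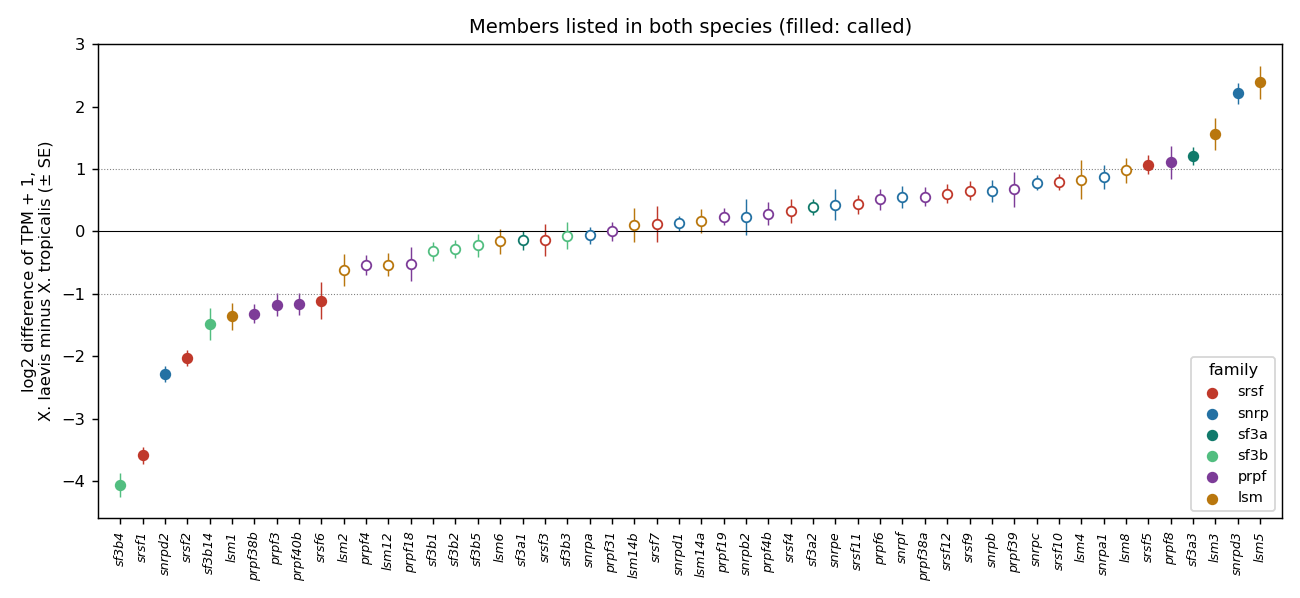
Log2 difference of TPM + 1 between *X. laevis* and *X. tropicalis* embryos, with its standard error, for 52 of the 53 members listed in both species, ordered by the difference and coloured by family. Filled points are called (6 higher and 10 lower in *X. laevis* among those plotted), open points are not, and the dotted lines mark a log2 difference of 1 in either direction.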

How the data were processed

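Whole stage 9 embryos of 4 groups were sequenced, with 2 libraries each. The authors mapped reads with Bowtie to a combined transcript database of both species, allowing no mismatch and only unique targets, and deposited the TPM that RSEM gave for each transcript in each library. The processing notes of the submitters also name BWA 0.7.10, with no role. No genome or sequence was used here, so positions and sequences are not given.

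TPM were summed by symbol within species, and unnamed transcripts were kept apart. Tests used limma 3.58.1 in R 4.3.3 (lmFit, eBayes with a mean trend) on log2(TPM + 1) of the 2 groups compared, without a block, over genes at 1 TPM or more in at least 2 libraries. P-values were adjusted by Benjamini-Hochberg over all genes of both species, and the test was checked on simulated data. The authors' edgeR test needs reads and was not repeated. The members and lists were chosen with earlier results of these data known. Genes named in detail were *srsf5* and *srsf7*, called members (the 10 largest where over 10), members detected only in a hybrid at 1 TPM, the 3 largest non-overlapping egg-species differences in each direction and the most abundant member of each family. Alternatives were a pseudocount of 0.1, no filter or one at 5 TPM, quantile normalization, rescaling to egg-species transcripts, a joint fit of all 4 groups, adjustment within species, single transcripts, the replicate number as a block, detection at 0.5 or 5 TPM, a sum without its most abundant member and each replicate left out. Precision was limited by 2 libraries per group. No counting intervals are given, since TPM keeps no depth. The values of 1 member are not reported here.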

Additional observations from a re-analysis of the deposited data

Results flagged for a closer look

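Egg-species transcripts of *snrpd2* were lower in both le × ts libraries than in both *X. laevis* libraries (log2 difference -0.26, SE 0.241). In both te × ls libraries they were higher than in both *X. tropicalis* libraries (log2 difference 0.0728, SE 0.0773). The second difference is smaller than its standard error. Groups did not overlap for 12 of 54 members lower in le × ts, against 7.95% of all *X. laevis* genes tested. They did not overlap for 5 of 56 members higher in te × ls, against 6.96% of all *X. tropicalis* genes tested. Neither was called, and the difference between the crosses was not tested.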

How the results depend on the processing

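The *X. laevis* members called higher in te × ls numbered 4, and 0 without the filter, with a filter at 5 TPM, with quantile normalization or with single transcripts. The cause was not tested for these. Leaving out a library gave 0 to 5. *X. tropicalis* members called higher in le × ts numbered 0, and 2 with adjustment within each species, of which *srsf7* passed the filter through le × ts alone. With the replicate number as a block they numbered 4 (*srsf1*, *srsf2*, *srsf5* and *srsf7*), and the *X. laevis* members called in te × ls 5. The block changed no other count of called members. In none of these other settings was the share of all genes called counted. The libraries share only a number, and deviations from group means of libraries with the same number correlated across genes at 0.753 in le × ts and *X. laevis*, 0.838 in te × ls and *X. tropicalis* and 0.00849 in *X. laevis* and *X. tropicalis*. The *X. tropicalis* members detected only in le × ts at 1 TPM numbered 1, with 2 at 0.5 TPM, 4 at 5 TPM and 1 to 5 with a library left out. *X. tropicalis* transcripts of *srsf5* in te × ls (log2 difference -0.06, and -0.24 to 0.12 with a library left out) reversed to 0.10 without te × ls replicate 1 and to 0.12 without *X. tropicalis* replicate 3, those of *srsf7* (-0.08, and -0.55 to 0.38) to 0.37 and 0.38, and *srsf7* between the parent species (0.12, and -0.34 to 0.58) to -0.34 without *X. tropicalis* replicate 1. None of these was called. In a fit without a library, the lone library of its group was assumed to vary like the others.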

Other observations

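Among the most abundant sperm-species SR genes, replicate 1 was the higher for the 4 named in le × ts and the lower for 3 of the 4 named in te × ls. The genes first transcribed at this stage had the same order. Their sperm-species transcripts summed to 223.2 and 119.5 TPM in le × ts replicates 1 and 3. In te × ls they summed to 112.5 and 177.3 TPM. In le × ts the order did not hold for all sperm-species transcripts, at 0.678% and 1.02% of TPM in replicates 1 and 3. Nor did it hold there for the 45 members other than *srsf* genes, at 22.0 and 23.1 TPM. In te × ls all sperm-species transcripts held 0.355% and 0.429%. In le × ts replicate 1 stood at 4.64 times replicate 3 for *srsf1*, 3.37 times for *srsf2*, 2.64 times for *srsf7* and 2.16 times for *srsf5*. In te × ls it stood at 0.470 times replicate 3 for *srsf5*, 0.715 times for *srsf7*, 0.738 times for *srsf2* and 1.07 times for *srsf9*. Between libraries of the same number, the log2 difference from the egg's species was positive for each of these genes. For *X. tropicalis* transcripts of *srsf7* it was 4.09 between libraries numbered 1 and 2.74 between those numbered 3, and for *X. laevis* transcripts of *srsf7* in te × ls it was 3.74 and 3.92. The smallest was 0.88, for *srsf2* in le × ts between libraries numbered 3.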
